A study of Homo sapiens with 6 samples.

Results

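Distal 8p, the outer part of the short arm of chromosome 8, was examined gene by gene in HEK293 cells with and without a BAHD1 transgene. Its members were the probe sets that name exactly 1 gene and whose gene lies between the end of the arm and PPP3CC, the last gene before SORBS3, in the order of the GRCh38 gene table. Symbols starting with ZNF, USP17L, MIR or SNOR were left out, which removed ZNF596, MIR124-1 and MIR320A, and 1 further gene that the rule leaves out is not analysed here. This gave 129 probe sets and 97 genes, of 19310 probe sets and 18377 genes measured alone by a probe set in the series. The stretch was taken up because a window of neighbouring genes between FBXO25 and SLC39A14, of those with signal above the array-wide median, lay high in this same comparison. The differences and calls below are therefore a description of the stretch and no evidence that it stands apart. 3 arrays were labelled HEK-BAHD1, a line made from Flp-In T-REx cells, which derive from HEK293, in which a single copy of the BAHD1 cDNA, driven by the cytomegalovirus promoter, had been integrated at an FRT site. The other 3 were labelled HEK-CT, the isogenic control, which carried an out-of-frame β-galactosidase insert according to the sample labels and an empty vector according to the methods. Both lines were stable pools of transfectants selected and grown in Hygromycin B, and the arrays of a line came from separate flasks of 1 pool, so that every standard error measures the spread between cultures of that pool. The methods give a later passage for HEK-BAHD1 replicate 2 than for HEK-BAHD1 replicate 1 and HEK-CT, and none for HEK-BAHD1 replicate 3. They do not say whether these numbers are those of the arrays.

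HEK293 cells descend from human embryonic kidney, grow without limit and carry an altered number of chromosomes. BAHD1 is a heterochromatin protein that gathers histone deacetylases and HP1 proteins at silenced genes. Distal 8p carries genes of unrelated functions that share only their place. It holds defensins, antimicrobial peptides of neutrophils and epithelia, and repeats that allow part of the arm to invert in the human population. It is also often lost in carcinomas. Several of its genes, such as DLC1 and LZTS1, have been described as tumour suppressors for that reason.

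As a check of the labels, BAHD1 itself had a log2 signal of 6.75, 7.0 and 6.76 on the arrays labelled HEK-BAHD1, against 10.06, 9.81 and 9.93 on those labelled HEK-CT. The BAHD1 signal was thus lower on the arrays whose label names the overexpressing line, which goes against the labels. Whether the labels were exchanged was not tested, and no direction below is read as an effect of BAHD1 overexpression. Every direction below is that of the labels as deposited. An exchange of the labels would turn the sign of every difference and leave its size, standard error and p-value as they are. On the log2 scale, array medians over the 21062 probe sets tested were 6.43, 6.46 and 6.46 on the arrays labelled HEK-BAHD1. Those labelled HEK-CT had 6.42, 6.40 and 6.42, so that the groups did not overlap. Among 6 marker genes of HEK293, KRT8, KRT18, VIM and CDH2 lay above the median probe set and NEFM and PAX2 below it, at a mean of 4.87 and 5.74. The 7 measured markers of immune, liver, fibroblast and endothelial cells had means between 2.98 and 5.13, all below the median probe set. None of the 7 was called in either direction, while of the HEK293 markers VIM was called lower and NEFM higher.

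Over the 97 genes of distal 8p, the median log2 fold change, labelled HEK-BAHD1 minus labelled HEK-CT, was 0.08, and the middle of the distribution ran from -0.04 to 0.16 (quartiles). The median over all 18377 genes was 0.007. A gene was called when limma gave an adjusted p under 0.05 over all 21062 probe sets tested and the group medians differed by more than 0.2. By that rule 15 members were called higher, against a background of 7.17% of all genes, and 4 were called lower, against a background of 6.32%. The remaining 78 were not called. With the labels exchanged the same fit would give 4 higher and 15 lower. With the arrays centred on their medians, 1034 of all genes were higher and 1638 lower, against 1317 and 1162 as deposited, and the members gave 12 and 5. The 15 genes called higher had log2 fold changes from 0.23 to 0.92, with a median of 0.33, and adjusted p-values from 0.000759 to 0.0365 in limma. The 4 called lower lay between -0.51 and -0.31. The median fold among those called higher was 1.25.

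**Figure D1:**
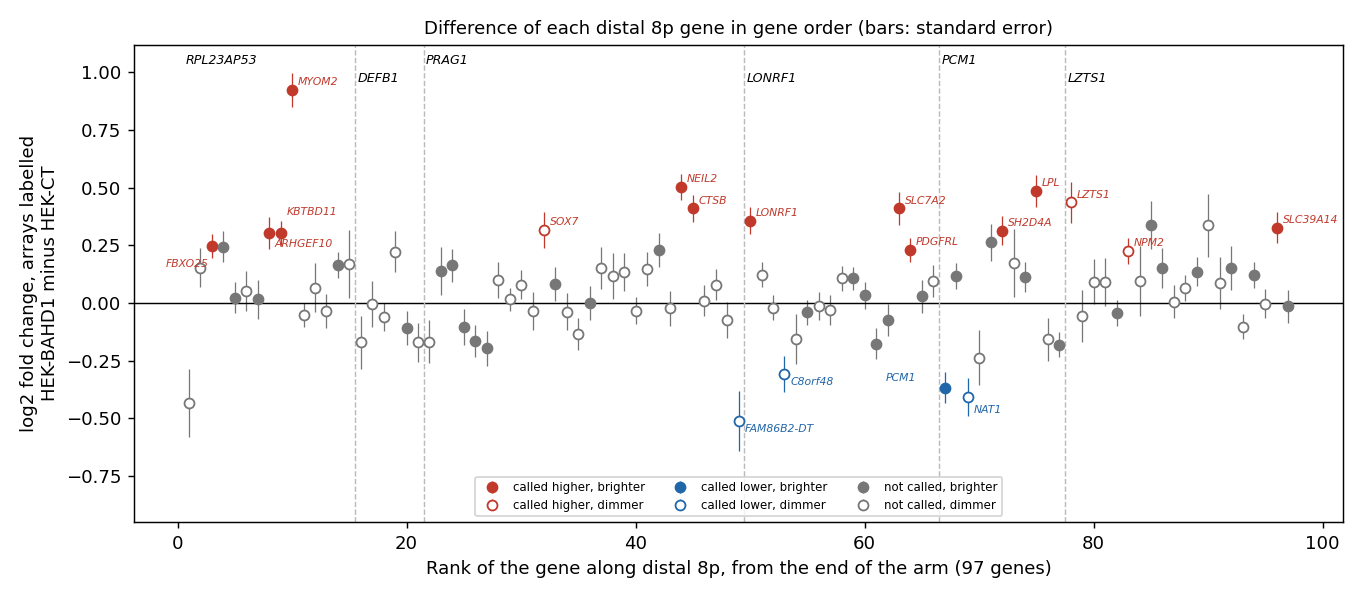
Difference in log2 signal between the arrays labelled HEK-BAHD1 and those labelled HEK-CT (vertical axis, positive where HEK-BAHD1 is higher, bars give the standard error) for the 97 genes of distal 8p, by rank from the end of the arm (horizontal axis). Filled points lie above the median signal of all probe sets, open points below it, red and blue mark called genes, and dashed lines mark where the 6 blocks begin. MYOM2 stands highest at 0.92, and the 4 genes called lower lie among genes called higher or not called.

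The differences lay mostly in the members with signal. Of the 97 genes, 43 had a mean log2 signal over the 6 arrays above 6.44, the median of all probe sets tested, and are called brighter here. Of the brighter members 12 were called higher and 1 lower, against backgrounds of 9.34% and 9.99% of the brighter genes of the whole array, and 31 of the 43 (72.1%) had a fold change above 0, against 45.8% of all brighter genes. Their median log2 fold change was 0.14, while that of all 9279 brighter genes was -0.02. The 54 dimmer members had a median of 0.008, with 3 called higher and 3 lower, against backgrounds of 4.95% and 2.58% of all dimmer genes. No conclusion about the stretch can be drawn from these counts, since the brighter members are the ones by which it was found. All 3 arrays labelled HEK-BAHD1 lay above all those labelled HEK-CT for 27 of 97 genes (background 17.3%) and below them for 11 (background 16.9%). Among the brighter members this held for 21 of 43 (background 21.6%) and 5 of 43 (background 26.9%).

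**Figure D2:**
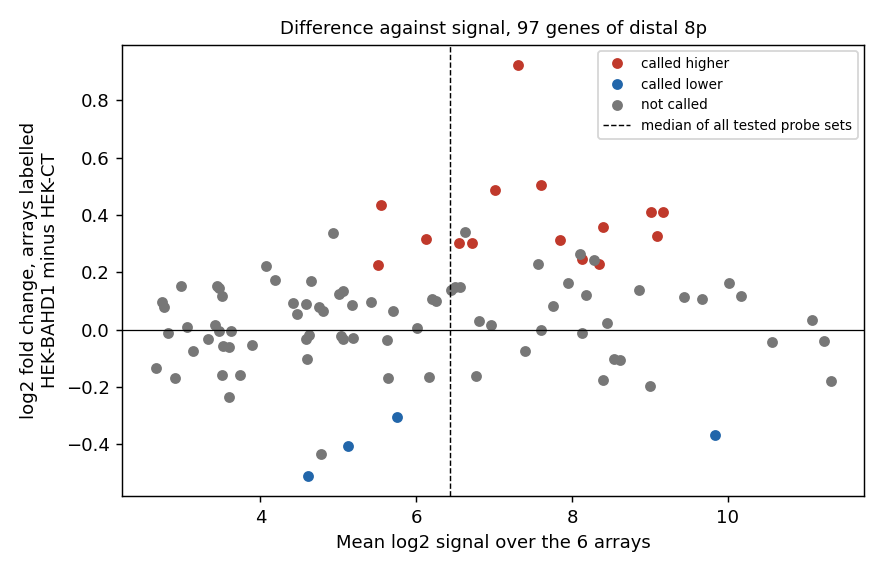
Difference in log2 signal between the arrays labelled HEK-BAHD1 and those labelled HEK-CT (vertical axis, positive where those labelled HEK-BAHD1 are higher) for the 97 genes of distal 8p against their mean log2 signal over the 6 arrays (horizontal axis). Each point is a gene and the dashed line is the median signal of all tested probe sets, 6.44; 12 of the 15 genes called higher lie to its right.

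The level of the stretch was also taken on single arrays. Each gene's mean over the 6 arrays was subtracted, and the median of the 43 brighter members was taken on each array. The 3 arrays labelled HEK-BAHD1 gave 0.025, 0.10 and 0.043 in order of replicate number, against -0.078, -0.080 and -0.065 for the 3 labelled HEK-CT. The groups did not overlap, and the 3 arrays labelled HEK-CT were closer to each other than those labelled HEK-BAHD1. HEK-BAHD1 replicate 2 was the highest, and without it the median log2 fold change of the brighter members was 0.10. Over all brighter genes it was also the highest array labelled HEK-BAHD1, at 0.015, against -0.015 for replicate 1 and -0.023 for replicate 3. Whether this array is the one of the later passage is not stated, and the part of the passage in these values was not tested. For the dimmer members the same medians were -0.003, -0.014 and 0.008, against 0.014, -0.024 and 0.026 on the arrays labelled HEK-CT, and the groups overlapped. The brighter genes of the rest of 8p gave 0, 0.042 and -0.015, against -0.023, 0.003 and 0.007. Those of 8q gave -0.004, 0.019 and -0.031, against -0.028, 0.034 and 0.009. In both of these neighbouring regions the groups overlapped. The stretch was chosen because brighter genes of it lay high in this same comparison. The contrast with the other regions is therefore a description and no evidence that distal 8p stands apart. Over all 97 members, brighter and dimmer together, the medians were 0.015, 0.033 and 0.025, against -0.032, -0.050 and -0.022, and the groups did not overlap.

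**Figure D3:**
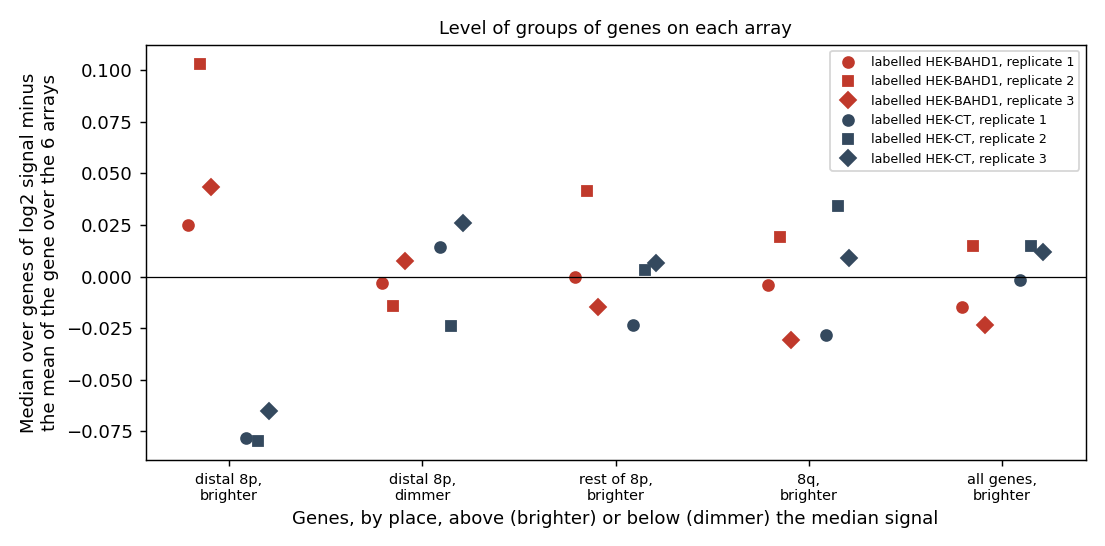
Median over genes of the log2 signal minus the gene's mean over the 6 arrays (vertical axis), for groups of genes by place and signal (horizontal axis). Each point is 1 array, with arrays labelled HEK-BAHD1 to the left in red. For brighter genes of distal 8p the HEK-BAHD1 arrays lie between 0.025 and 0.10 and the HEK-CT arrays between -0.080 and -0.065, while the groups overlap for the other 4 gene groups plotted. The stretch was chosen by its brighter genes in this comparison, so their separation is no evidence that it stands apart.

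MYOM2, a myomesin of the M-band of the sarcomere, had the largest difference of all members. Its log2 signal was 7.74, 7.87 and 7.70 on the arrays labelled HEK-BAHD1, against 6.85, 6.74 and 6.95 on those labelled HEK-CT. The groups lay far apart, and the fold was 1.90 (log2 fold change 0.92, standard error 0.075). ARHGEF10 was at 6.91, 6.93 and 6.76, against 6.52, 6.53 and 6.64 (log2 fold change 0.30). SH2D4A, an SH2 domain adaptor, was at 7.98, 8.05 and 7.96, against 7.70, 7.76 and 7.59 (0.31). In neither gene did the groups overlap. DMTN, the actin-bundling protein dematin, was at 6.56, 6.98 and 6.86, against 6.51, 6.44 and 6.43, and its value of 0.34 (standard error 0.10) was not called. PSD3, an exchange factor for the GTPase ARF6, had a value of 0.26 and MFHAS1 0.16, neither called.

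Among 11 genes listed for the lysosome, lipids and other metabolism, 2 were called higher and 1 lower, and the median of the list was 0.02. Beside the counts of this and the following lists stand the same shares of all genes, 7.17% higher and 6.32% lower, and of brighter genes, 9.34% and 9.99%, and the median of all genes, 0.007. With so few genes a list, nothing is read from its count. CTSB, the lysosomal cysteine protease cathepsin B, was at 9.31, 9.40 and 9.40 on the arrays labelled HEK-BAHD1, against 9.02, 8.93 and 8.93 on those labelled HEK-CT (log2 fold change 0.41, standard error 0.057). LPL, the lipase that hydrolyses triglycerides of lipoproteins, was at 7.22, 7.39 and 7.17, against 6.73, 6.81 and 6.78 (0.49, standard error 0.070). Both were apart on every array. NAT1, an arylamine N-acetyltransferase and neither a lysosomal nor a lipid enzyme, was the one called lower. It was at 4.76, 5.02 and 4.98, against 5.25, 5.38 and 5.35 (-0.41). Its neighbour and paralog NAT2 lay near the bottom of the scale at a mean of 3.60, with a value of -0.24 that was not called. ASAH1, the acid ceramidase, and AGPAT5, an acyltransferase that makes phosphatidic acid, were bright, with means of 10.17 and 10.02. Their differences of 0.12 and 0.16 were not called, although their groups did not overlap. PPP1R3B, which brings protein phosphatase 1 to glycogen, was at -0.16, and the myotubularin-related MTMR7 and MTMR9 were at -0.07 and 0. CLN8, an endoplasmic reticulum protein that carries lysosomal enzymes outward, was at 0.02. None of these 4 was called.

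Genes of DNA repair, telomeres and the centrosome differed in direction. NEIL2, a glycosylase of base excision repair, had values of 7.86, 7.90 and 7.78, against 7.31, 7.38 and 7.34 (log2 fold change 0.50, standard error 0.057). PCM1, the scaffold of centriolar satellites, had values of 9.67, 9.75 and 9.54, against 10.01, 10.01 and 10.04 (-0.37, standard error 0.066). Both sets of arrays were clearly separate, PCM1 being the only brighter member called lower by the main rule. TNKS, the poly-ADP-ribosylating enzyme tankyrase, was at -0.20 and PINX1, an inhibitor of telomerase, at 0.08, neither called. Of the 4 genes measured from this list, 1 was thus called higher and 1 lower (all genes 7.17% and 6.32%). MCPH1 was not analysed here.

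Of 8 genes of transport and membrane traffic, 2 were called higher and none lower (all genes 7.17% and 6.32%), with a median of 0.11. SLC7A2, a transporter of cationic amino acids, was at 9.35, 9.20 and 9.11 on the arrays labelled HEK-BAHD1, against 8.84, 8.80 and 8.79 on those labelled HEK-CT (log2 fold change 0.41). SLC39A14, an importer of zinc, iron and manganese, was at 9.36, 9.25 and 9.14, against 8.90, 8.94 and 8.93 (0.33). In both genes the arrays labelled HEK-CT lay within a narrow range and the arrays labelled HEK-BAHD1 spread above it. The largest value opposite to these was that of ATP6V1B2, a subunit of the proton pump of lysosomes and endosomes, at 11.19, 11.29 and 11.20, against 11.40, 11.41 and 11.41 (-0.18, not called). ATP6V1B2 was the brightest gene of the stretch and was called lower under some alternatives, given below. VPS37A, of the ESCRT-I complex, was at -0.18, the palmitoyltransferase ZDHHC2 at 0.11 and the endoplasmic reticulum protein REEP4 at 0.14, none of them called.

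Genes of protein turnover lay outside these lists and are named because they were called. FBXO25, an F-box protein of a ubiquitin ligase, was at 8.23, 8.25 and 8.29, against 8.03, 8.01 and 7.99 (log2 fold change 0.25). KBTBD11, with kelch repeats and a BTB domain, was at 6.69, 6.68 and 6.74, against 6.43, 6.37 and 6.40 (0.30). LONRF1, a RING finger protein, was at 8.61, 8.62 and 8.51, against 8.17, 8.28 and 8.22 (0.36, standard error 0.059). All 3 genes had separate groups, with standard deviations of at most 0.061 within a line.

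Of the 3 transcription factors and chromatin genes listed, SOX7, of the SRY-box family, was called higher, and the other members were not called. SOX7 was at 6.23, 6.40 and 6.21, against 5.96, 5.87 and 6.06 (log2 fold change 0.32). GATA4, a zinc finger factor of heart and endoderm, was at 7.67, 7.61 and 7.77, against 7.49, 7.33 and 7.54. Its groups did not overlap, but its log2 fold change of 0.23 (standard error 0.075) was not called. Among genes reported as tumour suppressors, 2 of the 8 measured were called higher and none lower (all genes 7.17% and 6.32%), with a median of 0.06. LZTS1, a leucine zipper protein, was at 5.57, 5.79 and 5.92, against 5.34, 5.30 and 5.33 (0.44), and PDGFRL, which resembles the PDGF receptor, was at 8.43, 8.48 and 8.47, against 8.25, 8.23 and 8.21 (0.23). TUSC3, a subunit of the oligosaccharyltransferase, was among the brightest members at a mean of 11.23 and had a value of -0.04. MTUS1, which binds microtubules, was at 0.03. Neither was called. Of the pair of glycosylation genes listed, TUSC3 among them, none was called.

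Of the 7 listed genes of RNA processing and nuclear transport, 5 were bright. Of the 7, 1 was called higher and none lower (all genes 7.17% and 6.32%), with a median of 0.03. CNOT7, a deadenylase of the CCR4-NOT complex, had a mean log2 signal of 11.08 and a difference of 0.03. XPO7, a nuclear exporter, INTS10, of the Integrator complex, and POLR3D, of RNA polymerase III, had differences of -0.04, 0.11 and 0.12, and the exonuclease ERI1 had -0.10. None of these 5 was called. The gene called higher was NPM2, a histone chaperone of the oocyte, at 5.57, 5.60 and 5.68, against 5.37, 5.37 and 5.43 (log2 fold change 0.23). Its signal was below the median probe set, and its call was the least stable of all, kept under 2 of 14 alternatives.

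The 7 measured defensins had mean log2 signals between 2.76 and 4.07, none was called, and their differences lay between -0.17 and 0.22. The highest was that of DEFA5, an alpha-defensin of Paneth cells, at 4.27, 4.16 and 4.12, against 3.87, 4.14 and 3.87. It was called only without HEK-CT replicate 2. Of 7 ligands and receptors none was called, with values from -0.03 to 0.34 and a median of 0.09. Only BMP1, the procollagen C-proteinase, lay above the median probe set among them, at 0.15. The highest value was that of LGI3, a secreted leucine-rich repeat protein, at 5.0, 5.03 and 5.27, against 4.92, 4.46 and 4.91, where HEK-CT replicate 2 was far below the others (0.34, standard error 0.14).

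Of 11 lncRNAs and pseudogenes, 3 had a fold change above 0, 1 was called lower and none higher, and their median was -0.06, whereas the 86 protein-coding genes had a median of 0.09, with 15 called higher and 3 lower. All but 1 of the 11 were dim, against 44 of the 86 coding genes, and whether the classes differ was not tested. Over all genes the shares called were 7.17% higher and 6.32% lower. FAM86B2-DT, a divergent transcript in a family of near-identical copies and uncertain for that reason, was at 4.54, 4.23 and 4.28, against 4.59, 4.97 and 5.02 (log2 fold change -0.51, called lower). RPL23AP53, a ribosomal protein pseudogene with many relatives, was at 4.72, 4.78 and 4.19, against 5.01, 4.92 and 5.06, and its value of -0.43 was not called (standard error 0.15). The remaining gene called lower, the coding C8orf48, was at 5.55, 5.59 and 5.64, against 6.03, 5.76 and 5.91 (-0.31).

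**Figure D4:**
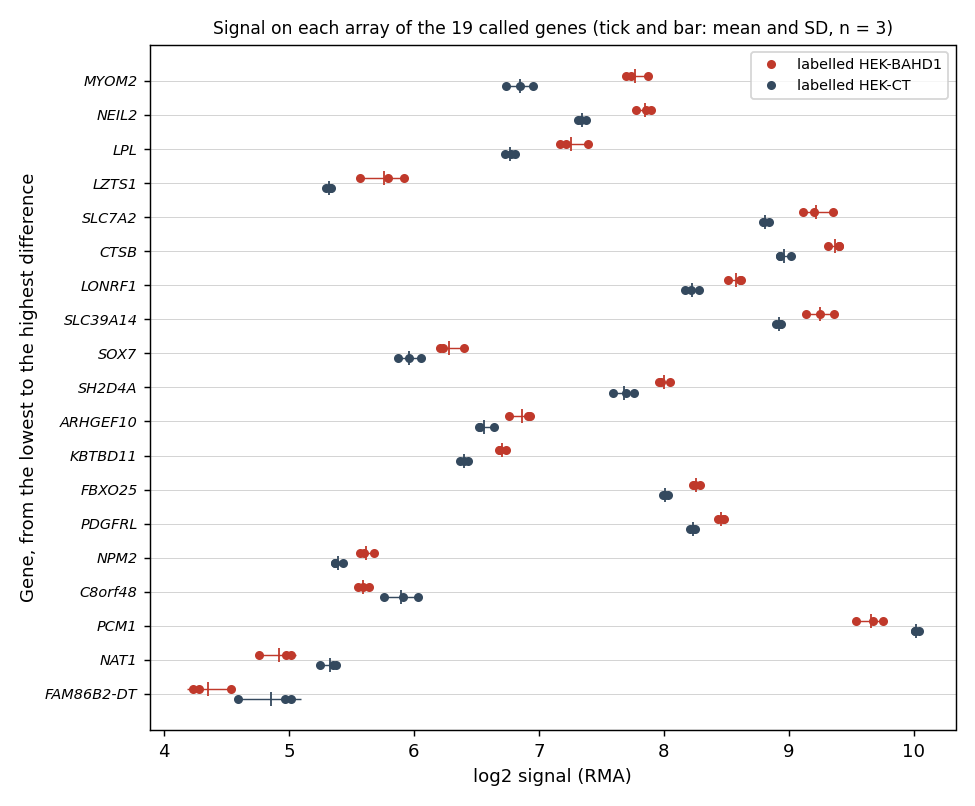
Log2 signal (horizontal axis) on each of the 6 arrays for the 19 called genes (vertical axis, ordered by difference). Points are arrays, ticks and bars the mean and SD of 3 arrays, with the line labelled HEK-BAHD1 above the line labelled HEK-CT in each row; in every gene the groups are separate, and MYOM2 shows the widest gap.

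Along the gene order the stretch was not uniform. It was divided into 6 blocks at landmark genes, whose counts of calls stand beside 7.17% higher and 6.32% lower over all genes. With so few genes a block, nothing is read from its count. The first, from RPL23AP53 to XKR5 at the end of the arm, had a median log2 fold change of 0.15 over 15 genes, with 4 called higher and none lower. All 8 of its brighter genes were above 0, which made up the longest run of brighter members of 1 sign: FBXO25, TDRP, ERICH1, CLN8, ARHGEF10, KBTBD11, MYOM2 and AGPAT5. ERICH1 and CLN8 had only 0.02 each, and the direction of CLN8 and ERICH1 turned with the arrays centred on their medians. TDRP, a protein of testis development, was at 8.30, 8.43 and 8.46, against 8.19, 8.07 and 8.20, and just missed the call (0.24, adjusted p = 0.0516 in limma). Without HEK-CT replicate 2 the median of this block was 0.09, and without HEK-BAHD1 replicate 3 it was 0.097. The defensin block, from DEFB1 to FAM86B3P, had a median of -0.08 over 6 genes, none called.

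The third block, from PRAG1 to FAM86B2-DT, had a median of 0.05 over 28 genes, with 3 called higher and 1 lower. Both signs occurred at either end of it. From its beginning PRAG1, CLDN23, MFHAS1, ERI1, PPP1R3B and TNKS were at -0.17, 0.14, 0.16, -0.10, -0.16 and -0.20. Near its end GATA4, LINC02905, NEIL2 and CTSB were at 0.23, -0.02, 0.50 and 0.41. The defensins DEFB136, DEFB135 and DEFB134 followed at 0.01, 0.08 and -0.07, and then FAM86B2-DT, the last gene, at -0.51. The fourth block, from LONRF1 to FGL1, had a median of 0.03 over 17 genes, with 3 called higher and 1 lower, and its sign turned to -0.007 with the arrays centred or without HEK-BAHD1 replicate 1. The fifth, from PCM1 to ATP6V1B2, had a median of 0.11 over 11 genes, with 2 called in each direction, and its median was 0.03 without HEK-BAHD1 replicate 2. The sixth, from LZTS1 to PPP3CC, had a median of 0.10 over 20 genes, with 3 called higher and none lower. Its median was 0.05 without HEK-CT replicate 2 and 0.16 without HEK-BAHD1 replicate 1. Of the 42 pairs of adjacent brighter members, 27 had the same sign. With 31 of the 43 brighter members above 0, many pairs share a sign in any order. Nothing about the order is read from this count. Genes called higher thus occurred in 5 of the 6 blocks, with genes at or below 0 between them.

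At the inner end of the stretch the last 5 genes inside were PHYHIP, POLR3D, PIWIL2, SLC39A14 and PPP3CC, with log2 fold changes of -0.10, 0.12, -0.003, 0.33 and -0.01. The first 5 beyond it were SORBS3, PDLIM2, C8orf58, CCAR2 and BIN3, at 0.19, 0.35, 0.14, 0 and 0.10. Among these only SLC39A14 and PDLIM2 were called, both higher, so that the values showed no step at the limit. Of all genes, 7.17% were called higher and 6.32% lower. Over the whole of the rest of 8p, the median was 0.02 over 135 genes, with 14 higher (10.4%) and 7 lower (5.19%). Over 8q it was 0.003 over 403 genes, with 26 higher (6.45%) and 18 lower (4.47%). The brighter genes of these regions had medians of 0.007 and -0.02. Whether distal 8p differed from them was not tested, because the stretch was chosen on these values.

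Genes with several probe sets did not always give 1 answer. The brighter probe set stood for the gene. ERICH1 had 0.02 by its brighter probe set and -0.40, called lower, by its dimmer one, and ARHGEF10 had 0.30 and -0.06. CLN8 had 0.02 and -0.01. For PSD3, BMP1, TRMT9B and FAM86B3P both probe sets had the same sign. LINC00965, a noncoding RNA among the defensin repeats, had 26 probe sets with 13 distinct sets of values and differences between -0.11 and 0.06, none called, and is uncertain because its copies cannot be told apart.

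Calls of single genes depended on the arrays kept and on the test. The count of 15 higher was 7 without HEK-BAHD1 replicate 2 or HEK-CT replicate 1, and 9 without HEK-CT replicate 2 or HEK-CT replicate 3. Over all genes the count of 1317 higher fell to 780, 848, 866 and 748 in that order. The count of 4 lower was 2 without HEK-BAHD1 replicate 2, HEK-BAHD1 replicate 3 or HEK-CT replicate 2, and 1 without HEK-CT replicate 3. Over all genes the count of 1162 lower fell to 808, 563, 678 and 510 in that order. Fewer calls without an array were thus not particular to the stretch. PDGFRL and NPM2 lost their calls without any 1 of the 6 arrays. FBXO25 lost it without any except HEK-BAHD1 replicate 1, SLC39A14 without any except HEK-BAHD1 replicate 3, SOX7 without any except HEK-CT replicate 3 and C8orf48 without any except HEK-CT replicate 2. ARHGEF10 lost it without HEK-BAHD1 replicate 1 or 2 or HEK-CT replicate 1 or 2, and SH2D4A without HEK-BAHD1 replicate 1 or 2 or HEK-CT replicate 1 or 3. LZTS1 lost it without HEK-BAHD1 replicate 2 or any array labelled HEK-CT, FAM86B2-DT without HEK-BAHD1 replicate 2 or 3 or HEK-CT replicate 2 or 3, and NAT1 without HEK-CT replicate 2 or 3. With all arrays kept, the LPE (local pooled error) test of the study's methods did not call KBTBD11, SOX7, NPM2, C8orf48 and NAT1, and this was the only alternative under which KBTBD11 lost its call. FBXO25, PDGFRL and NPM2 lost theirs with centred arrays. With all probe sets tested, SOX7, NPM2, FAM86B2-DT and C8orf48 lost theirs. NPM2 also lost it after a second quantile normalization and with a mean-variance trend, and FAM86B2-DT among the upper 70% of probe sets by signal. Some alternatives called members that the main rule did not. TDRP, PSD3 and DMTN were called higher by the LPE test, with a mean-variance trend and among the upper 70% of probe sets. ATP6V1B2 was called lower under the same settings and with centred arrays. TDRP, AGPAT5 and PSD3 were called higher after the second quantile normalization. Without HEK-BAHD1 replicate 1, DMTN was called higher and NAT2 lower. PSD3 was called higher without HEK-BAHD1 replicate 3, and DEFA5 without HEK-CT replicate 2. MYOM2, NEIL2, CTSB, LONRF1, SLC7A2 and LPL were called higher, and PCM1 lower, under all 14 alternatives run, 8 of processing and test and 6 that left out 1 array.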

How the data were processed

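Total RNA of 3 arrays labelled HEK-BAHD1 and 3 labelled HEK-CT was measured on Affymetrix HuGene 1.0 ST arrays. The deposited log2 values were made by the authors with RMA, a background correction and between-array normalization followed by a summary per probe set, and were rounded to 2 decimals. RMA's version and the build of the array annotation are not given in the sources used here. Genes were placed through gene identifiers in the GRCh38 table, and no gene coordinates are printed. All 21062 probe sets naming a gene were fitted with limma 3.58.1 in R 4.3.3, with Benjamini-Hochberg adjustment. The brightest probe set stood for a gene that had several. Brightness was set by the mean over all 6 arrays. The methods' LPE test was written anew, using 100 bins of intensity and a smoothing spline (10 degrees of freedom), and was an alternative, as were other scalings, filters, the replicate block and leaving out each array. The tests were also run on simulated data with noise drawn separately for each gene and array. Those data held no shift of whole arrays, so they cannot speak to such shifts. Named genes were all called members, the 5 most extreme not called on either side, brighter members of the lists, block ends and genes beside the inner limit. Members and lists were chosen with earlier results of these data known. The result of 1 list is not reported here. Depth has no equivalent on arrays, and the number of arrays limits the precision. Sequences of these genes were not used.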

Additional observations from a re-analysis of the deposited data

How the results depend on the processing

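With the arrays centred on their medians, which moved the median of all genes to -0.03, members had a median log2 fold change of 0.043, and the brighter members one of 0.10. The median over all members was 0.05 from differences of group medians (LPE test) and 0.056 after a second quantile normalization. Over only the members left among the upper 70% of probe sets by signal, a set without the dimmest ones, it was 0.107. Leaving out each array gave 0.042 to 0.075 over all members and 0.102 to 0.152 over the brighter ones. It gave 7 to 12 members called higher and 1 to 4 called lower. Over all genes these counts were 748 to 866 and 510 to 808. With all probe sets tested, 13 members were called higher and 2 lower, and over all genes 976 higher and 802 lower. The other settings of processing and test gave 12 to 18 higher and 3 to 5 lower, apart from the replicate block. Over all genes these settings gave 1034 to 1450 higher and 1144 to 1638 lower.

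The replicate numbers of the lines did not pair the arrays, the correlations of same-numbered deviations being -0.077, 0.074 and -0.038. With the replicate number as a block, 10 members were called higher and 2 lower (calls lost by FBXO25, ARHGEF10, SOX7, PDGFRL, NPM2, FAM86B2-DT and C8orf48), and over all genes 892 higher and 715 lower.

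Of the members with values in the text, those that changed sign were near 0 and not called. With centred arrays CLN8 was at -0.02, CNOT7 at -0.0033, ERICH1 at -0.013, MTMR9 at -0.037 and MTUS1 at -0.0067. By the LPE test CNOT7 was at -0.02, ERI1 at 0 and MTMR9 at -0.07. After the second quantile normalization CLN8 was at -0.0078, MTMR9 at 0.0083, MTUS1 at -0.00028, PPP3CC at 0.013 and XPO7 at 0.013. Leaving out each array, CLN8 lay between -0.057 and 0.088, CNOT7 between -0.0067 and 0.053, ERICH1 between -0.02 and 0.068 and MTMR9 between -0.053 and 0.037. Likewise MTUS1 lay between -0.012 and 0.093, PIWIL2 between -0.057 and 0.028 and PPP3CC between -0.068 and 0.025. The cause was not tested. How far signal over background limits the values of dim members was not tested.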
